A study of Homo sapiens with 4 samples.

Results

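The butyrophilins examined here are the 6 genes BTN1A1, BTN2A1, BTN2A2, BTN3A1, BTN3A2 and BTN3A3, taken by name from the gene table of 4 RNA libraries of A375 cells, and all 6 were found among its 2864 genes with values. A375 is a human melanoma cell line whose BRAF kinase carries an activating mutation, and vemurafenib is an inhibitor of that kinase. The cultures behind the libraries were untreated parental cells (A375P), a resistant strain raised over months in stepwise higher vemurafenib (A375R), cells given the solvent DMSO at 1‰ for 48 h (A375+DMSO) and cells given 2 μM vemurafenib for 48 h (A375+VEM). The labels give all 4 the same wild-type genotype and 1 batch, and A375R is 1 strain made in 1 laboratory. No vemurafenib dose at harvest was available here for A375R. With 1 library per condition there was no replicate error, so no p-value is given. Differences are described by ratios with 95% intervals that cover counting error only.

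Butyrophilins are membrane proteins of the immunoglobulin superfamily, related to the B7 costimulatory molecules. BTN3A1 binds phosphoantigens, small phosphorylated metabolites of isoprenoid synthesis, through its intracellular B30.2 domain, and together with BTN2A1 it lets the main γδ T cell subset of human blood sense them on tumor or infected cells. BTN2A1 is the partner that contacts the γδ T cell receptor. BTN3A2 has no B30.2 domain and assists BTN3A1, BTN3A3 is the remaining BTN3A protein, BTN2A2 restrains T cell activation, and BTN1A1 is best known from the milk fat globule. The values below are RNA levels of a tumor cell line in culture, and no T cell response was measured.

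All 6 genes lie on the plus strand of chromosome 6, in a cluster from 26365387 to 26510653 on hg19, the build listed in the submitters' processing notes. The order along the chromosome is BTN3A2, BTN2A2, BTN3A1, the pseudogene BTN2A3P, BTN3A3, BTN2A1 and BTN1A1. RefSeq promoter sequences on GRCh38.p14 were matched for 4 of the 6 genes. The windows of BTN2A1, BTN3A2 and BTN3A3 are shown because BTN2A1 and the BTN3A genes differed between libraries in opposite directions. Each runs 5′ to 3′ on the plus strand, from 250 bases before the RefSeq start to the base before the GENCODE gene start. Capitals mark the letters CCNAGCAAC, the core of the X box that RFX factors bind in MHC promoters, and CCAAT or its reverse complement ATTGG, the letters of the CCAAT box.
BTN2A1, chr6:26457705-26457903: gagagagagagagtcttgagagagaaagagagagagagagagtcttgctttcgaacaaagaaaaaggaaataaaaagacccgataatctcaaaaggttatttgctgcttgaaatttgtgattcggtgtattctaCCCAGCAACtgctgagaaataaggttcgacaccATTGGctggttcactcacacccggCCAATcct
BTN3A2, chr6:26364948-26365158: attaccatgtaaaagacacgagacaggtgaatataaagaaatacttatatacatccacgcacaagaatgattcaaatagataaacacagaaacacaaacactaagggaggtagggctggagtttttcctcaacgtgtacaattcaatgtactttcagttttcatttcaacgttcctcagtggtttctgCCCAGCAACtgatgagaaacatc
BTN3A3, chr6:26440254-26440471: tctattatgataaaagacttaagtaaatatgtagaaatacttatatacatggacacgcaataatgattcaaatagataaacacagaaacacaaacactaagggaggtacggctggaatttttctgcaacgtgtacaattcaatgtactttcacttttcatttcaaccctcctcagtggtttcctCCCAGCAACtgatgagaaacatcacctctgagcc

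The BTN3A2 and BTN3A3 windows were alike, with 86.3% identical positions over an alignment of the full 250 bases. BTN2A1 was 47.6% identical to BTN3A2 and 49.5% to BTN3A3, and BTN1A1 was 45.4% and 46.3% identical to them. A second start of BTN3A2 has its own window, 51.6% identical to that of the first and 50.5% to BTN1A1. The level for unrelated windows was not computed, so these lower values are not read as likeness. BTN2A1, BTN3A2 and BTN3A3 each held the same X box letters CCCAGCAAC on the plus strand, from position -116, -62 and -66, counted back from the base before the RefSeq start as -1. Each also held CCAAT on the plus strand downstream of it, from position -59, -30 and -34, and in BTN3A2 and BTN3A3 these letters lie past the end of the printed part or across it. Of 34788 distinct promoters of the same length, 1.41% held the X box letters on either strand, 32.0% the CCAAT letters and 0.535% both. Neither the BTN1A1 window nor that of the second start of BTN3A2 held the X box or CCAAT letters. None of the 5 member windows held the interferon-response letters GAAANNGAAA or the STAT-binding letters TTCNNNGAA on either strand, which 3.02% and 6.57% of promoters hold. The X box and CCAAT letters were searched after these sequences had been read, and a match of letters is a description, not a shown binding site. Only exact letters were searched, so a window without a match can still hold a near match. The window of B2M, the light chain of MHC class I, held CCAAT letters but no exact match of the X box letters. The windows of BTN2A2 and BTN3A1 were not analysed here.

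The BTN3A genes were the members with the largest differences, and A375P was the library that stood apart. BTN3A1 had 89 reads in A375P, 310 in A375R, 255 for A375+DMSO and 269 for A375+VEM, or a TPM (reads per length, scaled to the same total in every library) of 2.48, 9.55, 7.61 and 8.08. A375P was thus lowest, and the other 3 libraries lay close together. BTN3A2 had 134, 537, 492 and 680 reads in the same order, or a TPM of 3.80, 16.8, 14.9 and 20.8. It was the most abundant BTN3A gene in every library, again with A375P far below the rest. BTN3A3 had 30, 177, 213 and 313 reads, or a TPM of 1.17, 7.62, 8.87 and 13.1, the widest span of the 6 genes among those with over 10 reads in every library. The 3 genes together had 253 reads in A375P, 1024 in A375R, 960 for A375+DMSO and 1262 for A375+VEM.

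BTN2A1 and BTN2A2 differed between libraries in opposite directions. BTN2A1, the γδ T cell receptor partner, had 866 reads in A375P, 588 in A375R, 555 for A375+DMSO and 378 for A375+VEM, or a TPM of 27.4, 20.6, 18.8 and 12.9. It was highest in A375P and lowest in A375+VEM. BTN2A2 had 270, 381, 430 and 568 reads in the same order, or a TPM of 8.12, 12.7, 13.9 and 18.4, which is the reverse order of the libraries. Per length, BTN2A1 was 3.38-fold above BTN2A2 in A375P (95% interval 2.94 to 3.88), 1.62-fold in A375R (1.43 to 1.85) and 1.36-fold in A375+DMSO (1.20 to 1.54). In A375+VEM it was below BTN2A2, at a ratio of 0.701 (0.613 to 0.799). Their summed TPM differed less, at 35.5, 33.3, 32.7 and 31.3, and the share of BTN2A1 in that sum went from 77.1% in A375P to 61.9% in A375R, 57.6% for A375+DMSO and 41.2% for A375+VEM.

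BTN1A1 was at the limit of detection, with 1 read in A375P, 4 in A375R, 1 for A375+DMSO and 2 for A375+VEM. The level that 3 reads of this gene stand for was a TPM of 0.123 to 0.136, and no difference of BTN1A1 between libraries was detectable at this depth. It was below the minimum TPM of 1 in all 4 libraries and entered no comparison, so 5 of the 6 members were compared below.

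**Figure D1:**
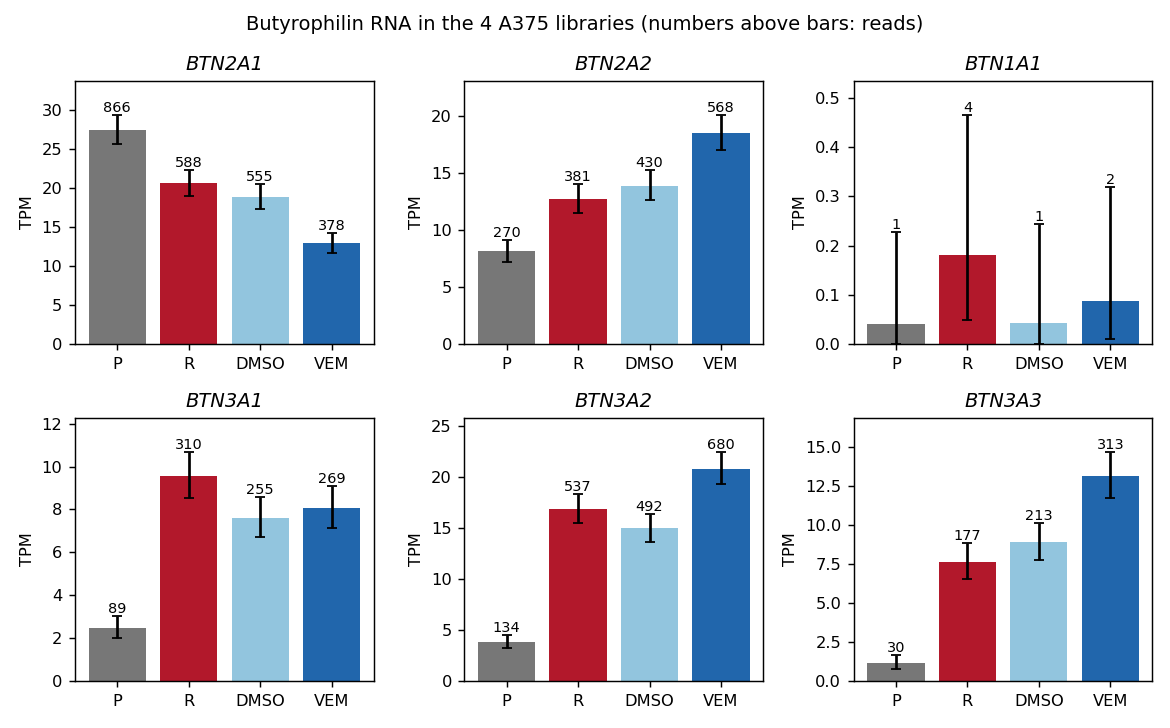
TPM of each butyrophilin (vertical axis, a separate linear scale per gene) in A375P (P), A375R (R), A375+DMSO (DMSO) and A375+VEM (VEM), 1 library each, with the number of reads above each bar and exact 95% Poisson intervals for counting error. BTN3A1, BTN3A2 and BTN3A3 are lowest in A375P, while BTN2A1 is highest there.

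The first pair of the study, A375R against A375P, asks which genes go with lasting resistance. A gene counted as called once (TPM + 0.1) differed more than 1.5-fold between the libraries, up or down, where either library of the pair reached a TPM of 1. Of the 5 members compared, BTN2A2, BTN3A1, BTN3A2 and BTN3A3 were called higher in A375R and none was called lower. Over all 1689 genes compared, 44.3% were called and 26.8% were called higher. BTN3A3 was 6.53-fold higher by TPM (95% interval 4.42 to 9.97), BTN3A2 4.44-fold (3.66 to 5.40) and BTN3A1 3.86-fold (3.04 to 4.94). On the log2 ratio, 1.95% of all genes lay above BTN3A3, 3.55% above BTN3A2 and 4.80% above BTN3A1. BTN2A2 was 1.56-fold higher (1.33 to 1.83), near the threshold, and its log2 ratio of 0.64 became 0.54 with the median ratio of all genes set to 1 and 0.56 with TMM scaling, both under 1.5-fold. BTN2A1 was at a ratio of 0.752 (0.676 to 0.836), lower in A375R and not past 1.5-fold. The median log2 ratio of the 5 members was 1.91, beside 0.10 over all genes compared.

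The same difference was there between DMSO-treated and untreated parental cells, both without vemurafenib. In A375+DMSO against A375P, BTN2A2, BTN3A1, BTN3A2 and BTN3A3 were again called higher and none was called lower, among 1720 genes of which 45.7% were called and 26.8% were called higher. BTN3A3 was 7.61-fold higher (95% interval 5.18 to 11.6), BTN3A2 3.93-fold (3.24 to 4.80), BTN3A1 3.07-fold (2.40 to 3.95) and BTN2A2 1.71-fold (1.46 to 1.99). BTN2A1 was at 0.687 (0.616 to 0.765), a log2 ratio of -0.54, which is under 1.5-fold as deposited and past it, at -0.63 and -0.62, with the median ratio set to 1 and with TMM scaling. This comparison and the one before share A375P, so they are not independent of each other.

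Against A375+DMSO, A375R showed little of this. No member was called among 1702 genes, of which 20.5% were called. BTN3A1 was 1.26-fold higher in A375R (95% interval 1.06 to 1.49), the only member whose interval excluded 1. BTN2A1 was at 1.09 (0.973 to 1.23), BTN2A2 at 0.915 (0.795 to 1.05), BTN3A2 at 1.13 (0.996 to 1.28) and BTN3A3 at 0.858 (0.699 to 1.05). The upper bounds for the 3 BTN3A genes, 1.49 at most, lay below the lower bounds of the ratios of A375R to A375P. Both ratios share A375R, so they are not independent, and the share of all genes with such a gap was not computed. With 1 library each, the condition and the single culture it came from cannot be told apart.

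**Figure D2:**
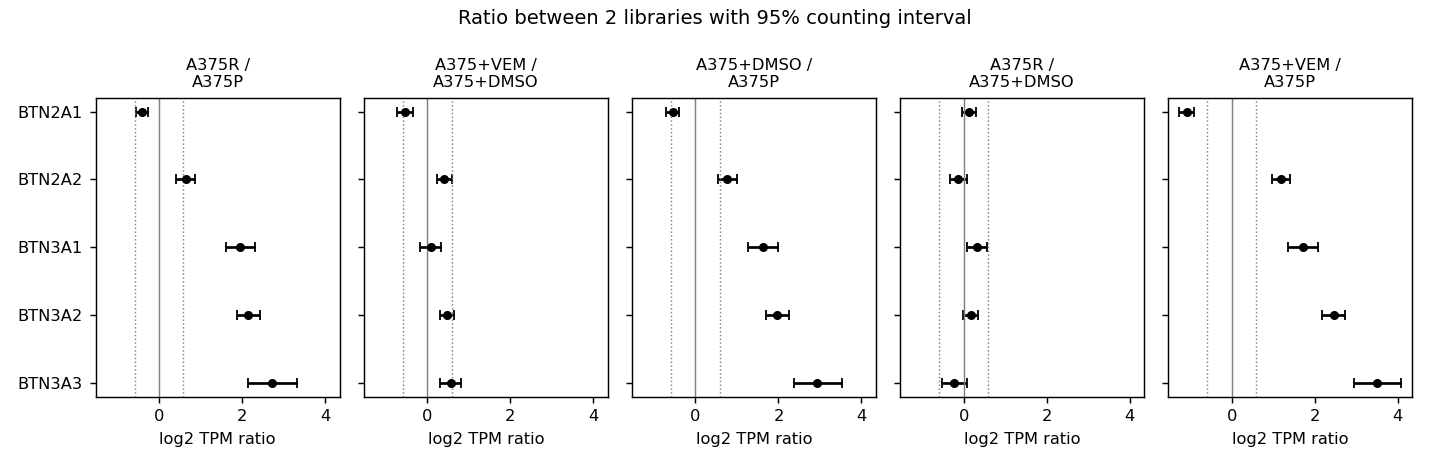
TPM ratio on a log2 axis for the 5 members compared, 1 panel per pair of libraries, with exact 95% intervals for counting error; the dotted lines mark 1.5-fold in either direction. The BTN3A genes lie far to the right in the 3 panels with A375P as the denominator and near 0 in A375R against A375+DMSO.

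The second pair, A375+VEM against A375+DMSO, asks what 48 h of the drug does. No member was called, among 1784 genes of which 46.2% were called. BTN3A3 was 1.48-fold higher with vemurafenib (95% interval 1.24 to 1.77), BTN3A2 1.39-fold (1.24 to 1.57) and BTN2A2 1.33-fold (1.17 to 1.51), each with an interval above 1 and a value below 1.5. BTN3A1 was at 1.06 (0.892 to 1.27), so no difference was detectable, and its log2 ratio of 0.09 turned to -0.02 with the median ratio set to 1 and to -0.06 with TMM scaling. BTN2A1 was at 0.686 (0.600 to 0.783), a log2 ratio of -0.54, and was called lower with the median ratio set to 1, at -0.65, and with TMM scaling, at -0.69. The median log2 ratio over all genes compared was 0.11, and TMM scaling moved every value of this pair by -0.15. Relative to that median, BTN2A1 was lower and BTN2A2, BTN3A2 and BTN3A3 were higher.

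Against A375P, A375+VEM had all 5 members past 1.5-fold. BTN2A2, BTN3A1, BTN3A2 and BTN3A3 were called higher and BTN2A1 lower, beside 62.1% of 1782 genes called, 36.9% higher and 25.3% lower. BTN3A3 was 11.3-fold higher (95% interval 7.73 to 17.0), BTN3A2 5.48-fold (4.54 to 6.64), BTN3A1 3.26-fold (2.56 to 4.19) and BTN2A2 2.27-fold (1.96 to 2.63). BTN2A1 was at 0.471 (0.416 to 0.532). TMM scaling moved the values of this pair by -0.23, which left the 5 calls in place.

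The resistant strain and the acutely treated cells were also set side by side. A375+VEM was higher than A375R for BTN3A3, at 1.72 (95% interval 1.43 to 2.08), for BTN2A2, at 1.45 (1.27 to 1.66), and for BTN3A2, at 1.23 (1.10 to 1.39). It was lower for BTN2A1, at 0.627 (0.549 to 0.714). BTN3A1 was at 0.846 (0.716 to 0.999), so A375R and A375+VEM were barely distinct by counting error. The order of the libraries was therefore A375P, A375R, A375+DMSO and A375+VEM for BTN2A2 and BTN3A3 going up and for BTN2A1 going down, and in each of these 3 genes A375R and A375+DMSO did not differ beyond counting error.

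**Figure D3:**
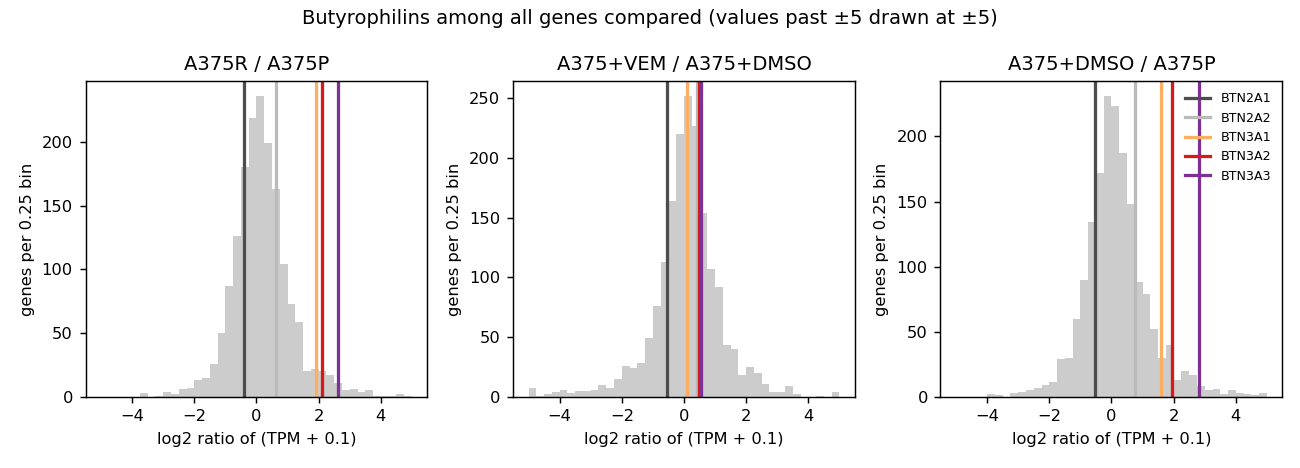
Histograms of the log2 ratio of (TPM + 0.1) over all genes compared in 3 pairs of libraries (vertical axis: genes per bin), with a vertical line for each of the 5 members compared. With A375P as the denominator BTN3A1, BTN3A2 and BTN3A3 sit in the right tail, while in A375+VEM against A375+DMSO none of the 5 is past 1.5-fold.

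The make-up of butyrophilin RNA differed between the libraries. The summed TPM of the 6 genes was 43.0 in A375P, 67.5 in A375R, 64.1 for A375+DMSO and 73.4 for A375+VEM. The BTN3A genes gave 17.3% of it in A375P, 50.4% in A375R, 49.0% for A375+DMSO and 57.2% for A375+VEM. In scaled reads, the BTN3A sum set against A375P was 4.48-fold as large in A375R (95% interval 3.90 to 5.16) and 4.07-fold as large in A375+DMSO (3.54 to 4.69), whereas the BTN2A sum was at 0.944 (0.866 to 1.03) and 0.929 (0.852 to 1.01). A375+VEM was 1.32-fold above A375+DMSO for the BTN3A sum (1.22 to 1.44) and at 0.967 for the BTN2A sum (0.884 to 1.06). Set against A375P, the BTN2A sum of A375+VEM was at 0.899 (0.824 to 0.981), an interval that excluded 1. Its log2 ratio of -0.18 was -0.33 with the median ratio set to 1 and -0.41 with TMM scaling. TMM scaling also took the log2 ratio of the BTN2A sum to A375P from -0.09 to -0.17 in A375R and from -0.12 to -0.20 in A375+DMSO. In A375+VEM against A375+DMSO the BTN2A sum went from -0.06 to -0.21 and the BTN3A sum from 0.42 to 0.27. Both of these moved beyond their counting intervals.

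Within the BTN3A genes, the share of BTN3A2 was steady, between 47.5% and 51.0% of their summed TPM. The share of BTN3A1 was 33.3% in A375P, 28.1% in A375R, 24.2% for A375+DMSO and 19.2% for A375+VEM. BTN3A3 took up the difference, with 15.7%, 22.4%, 28.2% and 31.3%. Per length, BTN3A1 was 2.13-fold above BTN3A3 in A375P (95% interval 1.39 to 3.33) and below it in A375+VEM, at 0.616 (0.521 to 0.727).

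**Figure D4:**
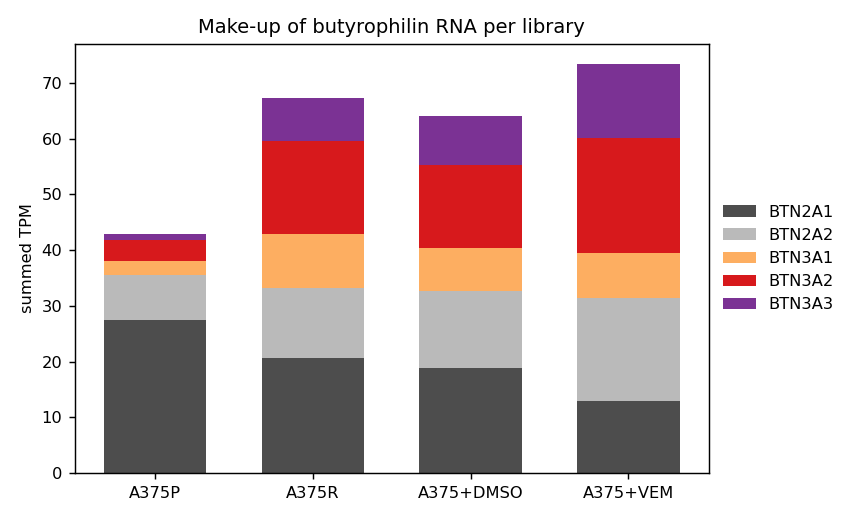
Summed TPM (vertical axis, linear from 0) of the 5 butyrophilins with a TPM of at least 1, stacked by gene for each of the 4 libraries. The BTN2A part stays between 31.3 and 35.5 TPM while its make-up shifts from BTN2A1 to BTN2A2, and the BTN3A part is smallest in A375P.

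Since the subfamilies arose by duplication, reads could be counted for the wrong member, and how shared reads were treated is not given in the sources used here. In the GENCODE transcripts, 5.50% of the distinct 100-base stretches of BTN3A3 also occur in BTN3A2 and 1.82% in BTN3A1. Of the stretches of BTN2A1, 0.662% occur in BTN2A2. At 50 bases, 14.7% of the stretches of BTN3A3, 14.0% of BTN3A2, 7.22% of BTN3A1, 4.89% of BTN2A1 and 2.50% of BTN2A2 were shared with some other gene, and only BTN3A2 shared any, 1.35%, with a gene that is no butyrophilin. Also at 50 bases, 10.7% of the stretches of BTN3A2 occur in BTN3A3, which had far fewer reads in A375P, 30 beside 134. A share of stretches therefore sets no limit on the error of a single gene's count, and the single-gene values are uncertain by an amount that was not measured. Summed reads of a subfamily do not depend on how reads were split among its own members, while summed TPM and the shares do, since the genes differ in length.

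The genes around the members were read in the same way. BTN2A3P, the transcribed pseudogene inside the cluster, had 26 reads in A375P, 61 in A375R, 64 for A375+DMSO and 70 for A375+VEM, and was 2.60-fold above A375P in A375R (95% interval 1.62 to 4.28). The 5 genes from BTN3A2 to BTN3A3, over 88.3 kb, were thus all higher in the 3 other libraries than in A375P, and BTN2A1, which starts 4.49 kb further on, was lower in each. Of the 1817 genes that reached a TPM of 1 in some library, 37.1% were lowest in A375P. Whether position in the cluster plays a part was not tested. ABT1, a nucleolar factor of basal transcription and the only other gene of the table within 1 Mb, lies 86.5 kb beyond BTN1A1. The genes with values end early in the letter C, so neighbours with later names could not be read. ABT1 had a TPM of 45.9 in A375P, 33.5 in A375R, 31.6 for A375+DMSO and 26.9 for A375+VEM, the same order as BTN2A1.

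**Figure D5:**
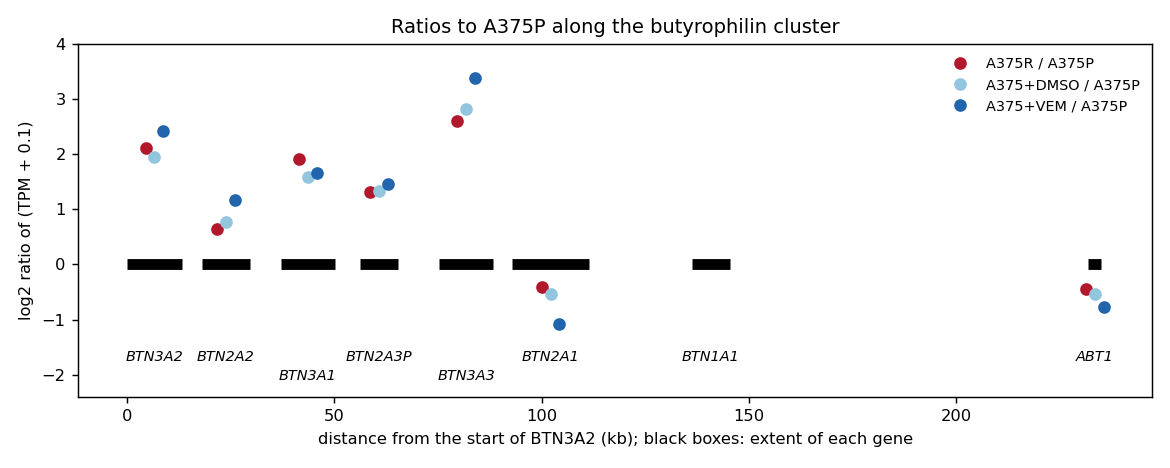
Log2 ratio of (TPM + 0.1) to A375P for A375R, A375+DMSO and A375+VEM (vertical axis) along the cluster, with the distance from the start of BTN3A2 in kb on the horizontal axis and black boxes for the genes. BTN3A2, BTN2A2, BTN3A1, BTN2A3P and BTN3A3 are above 0 and BTN2A1 and ABT1 below it in all 3 comparisons; BTN1A1 had too few reads to be drawn.

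The butyrophilin-like genes were scarce. BTNL8, a gut epithelial relative that acts with BTNL3 on resident γδ T cells, had 47 reads in A375P, 11 in A375R, 3 for A375+DMSO and 1 for A375+VEM. It was the one relative that was high in A375P, and its ratio was 0.259 in A375R (95% interval 0.121 to 0.507) and 0.0684 in A375+DMSO (0.0136 to 0.213). BTNL9 had 10 to 25 reads, and BTNL2, BTNL3 and BTNL10 had 0 to 7 reads per library, all below a TPM of 1.

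Butyrophilins of the BTN3A group are known to respond to interferon, so 17 interferon-inducible genes of the table were counted beside them. The list was written with earlier results of these data known, and whether interferon underlies the BTN3A values was not tested. In A375R against A375P, 9 of the 14 that could be compared were called higher and 0 lower, with a median log2 ratio of 1.21 beside 0.10 over all genes. The share of all genes called higher in that pair was the 26.8% given above. In A375+DMSO against A375P there were 7 higher and 1 lower, again beside 26.8% of all genes higher. In A375+VEM against A375+DMSO there were 6 higher and 1 lower, beside 26.5% of all genes called higher and 46.2% in either direction. In A375R against A375+DMSO, where no butyrophilin was called, there were 5 higher and 1 lower, beside 10.5% and 20.5%. In A375+VEM against A375P there were 10 higher and 1 lower, beside 36.9% and 62.1%. For A375+DMSO against A375P the list's median log2 ratio was 0.69, beside 0.09 over all genes. It was 0.35 beside 0.11 for A375+VEM against A375+DMSO, 0.10 beside 0.02 for A375R against A375+DMSO and 1.04 beside 0.15 for A375+VEM against A375P. A375P had the lowest TPM for 13 of these 14 genes, all but BATF2, and for 37.1% of the 1817 genes that reached a TPM of 1 in some library. This rank takes no account of counting error. In A375+DMSO against A375P, C1S was at 1.21 (0.670 to 2.18), APOL2 at 1.12 (0.961 to 1.30) and APOL3 at 1.53 (0.899 to 2.62). These intervals held 1, and those of the remaining genes of the 13 lay above 1. The log2 ratio of B2M in that pair was 0.09, the same as the median over all genes. The order of the libraries besides A375P varied within the list. C1R, a complement protease, had 44, 228, 317 and 970 reads in A375P, A375R, A375+DMSO and A375+VEM, with A375+VEM far above the rest. BST2, which tethers budding virus, had 14, 36, 142 and 131 reads, highest in A375+DMSO, and APOBEC3G, an antiviral cytidine deaminase, had 240, 1966, 615 and 271, highest in A375R. B2M, the light chain of MHC class I, had a TPM of 1008 in A375P, 1140 in A375R, 1075 for A375+DMSO and 1704 for A375+VEM, near the same level in the first 3.

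Other genes tied to γδ T cell recognition showed no common direction. Of ABCA1, APOA1, ACAT2, ATP5A1, ATP5B and ANXA2, only ACAT2, an early enzyme of the isoprenoid pathway, was called in A375R against A375P, where it was higher with a TPM of 40.1 beside 23.7. In A375+VEM against A375+DMSO, where 46.2% of all genes were called, ACAT2 was called lower, with a TPM of 17.7 beside 36.4. ABCA1, a transporter linked to phosphoantigen export, and ANXA2, an annexin recognized by some γδ T cells, were called higher there. ABCA1 had a TPM of 7.29 beside 4.31 and ANXA2 one of 2107 beside 1011. With vemurafenib, ABCA1 was still below its TPM of 9.68 in A375P. In A375+VEM against A375P, ATP5A1 and ANXA2 were called higher and ATP5B lower, beside 62.1% of all genes called.

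Immune cells also carry butyrophilins, so 10 immune cell markers were checked. Their reads summed to 11 in A375P, 30 in A375R, 16 for A375+DMSO and 44 for A375+VEM, or a summed TPM of 1.11 to 4.59. C1QA was at 0 in every library, and AZU1 alone, at 24 reads in A375+VEM, passed a TPM of 1. Of 4 pigment cell genes BCAN was the most abundant in 3 libraries, with a TPM of 15.4 to 34.1 over the 4, and ABCB5 had 0 to 6 reads. BCL2A1, an apoptosis inhibitor, had a TPM of 7.67 in A375P, 37.5 in A375R, 4.24 for A375+DMSO and 8.15 for A375+VEM, and was 8.84-fold above A375+DMSO in A375R (95% interval 6.12 to 13.2). CA14, a carbonic anhydrase, had a TPM of 1.92, 0.568, 1.86 and 5.26 in the same order, lowest in A375R and highest in A375+VEM. The defining melanocyte markers MITF, SOX10 and MLANA were not analysed here. In bulk RNA, fewer cells with a transcript and less of it per cell cannot be told apart.

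To show which genes ran alongside the members, genes whose TPM averaged 5 or more were ranked by the Euclidean distance of their mean-centred log2(TPM + 0.1) over the 4 libraries. Nearest to the BTN3A sum among 1323 genes were ABCA2, at a distance of 0.28, ARHGEF25 at 0.30 and B4GALNT1 at 0.34. ABCA2 had a TPM of 8.07 in A375P, 28.2 in A375R, 31.4 for A375+DMSO and 40.7 for A375+VEM. BTN2A2 ranked 127 and BTN2A1 1089 in that order. Nearest to BTN2A1 among 1325 genes were C22orf29 at 0.08, ARMC6 at 0.10 and AXIN1 at 0.12. C22orf29 had a TPM of 13.0, 9.83, 9.27 and 6.53 in the order of the libraries above. With 4 libraries such a likeness is a description only.

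Over the table the reads summed to between 1891215 and 2054277 per library and the TPM to between 8.48% and 8.94% of each library's total, so the full depth of the libraries was larger than these sums. On the TPM scale BTN2A1 in A375P lay above 78.8% of the genes of the table, the highest rank of any member, and BTN3A3 in A375P above 45.0%, the lowest of the 5 members compared.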

How the data were processed

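RNA was sequenced from 1 library per condition, and conditions were taken from the sample labels. The authors deposited 1 table that gives each gene its raw read count and its TPM in every library; TPM times length over count was 1 constant in each library. The submitters' processing notes list hg19, HISAT, HISAT2, TopHat2 and Bowtie2. Versions, counting program and strand setting are not given in the sources used here. The genes run alphabetically and end early in the letter C, and 1 incomplete row was left out.

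Pairs of libraries were compared by the ratio of (TPM + 0.1), called past 1.5-fold where either library reached a TPM of 1, over all genes. The added 0.1 draws the ratios of low genes toward 1. Folds of single genes are TPM ratios without the 0.1, with exact Clopper-Pearson intervals at 95% on the reads of both libraries, which compare libraries and not conditions; intervals on a single TPM are exact Poisson. Ratios of the subfamily sums are of summed reads, scaled by each library's constant. Reads are not independent molecules, so intervals cover counting error only. The members, the gene lists and the comparisons were chosen with earlier results of these data known. Named genes are the members, their relatives, genes within 1 Mb, listed genes that were called or abundant, and the 3 nearest in pattern. The steps were tested on simulated data. Alternatives were other pseudocounts, filters, scalings, threshold and control. Motifs were searched on both strands of the 250 bases before each RefSeq start. Columns of gene type, position and description were used as annotation. TMM factors came from edgeR 4.0.16 in R 4.3.3; the rest ran in Python 3.11.15 with pandas 2.3.3, numpy 2.4.6, scipy 1.17.1, Biopython 1.88 and matplotlib 3.10.9.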

Additional observations from a re-analysis of the deposited data

How the results depend on the processing

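The number of members past 1.5-fold was recomputed with pseudocounts of 1 and 0.01, without a filter on low values, at a TPM of at least 5, with the median ratio set to 1, with TMM factors and at a threshold of 2-fold. Of 37 recomputed counts, 32 stayed within 1.5 times the first count. In A375R against A375P the count was 4, and with A375+DMSO as the control it was 0, beside 44.3% and 20.5% of all genes called. In A375+VEM against A375+DMSO the count was 0. It was 1 with the median ratio set to 1 and 1 with TMM factors, BTN2A1 both times, and 5 with A375P as the control. The share of all genes called was 46.2%, 45.3%, 45.7% and 62.1% in the same order. In A375R against A375+DMSO the count was 0, and 1 with no filter at all, when BTN1A1 enters at 4 reads beside 1. The share of all genes called in this pair was 20.5%, and 28.6% with no filter. The cause of these changes was not tested except for BTN1A1, which the filter keeps out. The 40 log2 ratios of members and subfamily sums were recomputed with each pseudocount and scaling, which gave 160 values. Of these, 10 moved beyond their counting interval. Only BTN3A1 in A375+VEM against A375+DMSO changed sign, under both scalings. A threshold of 2-fold left BTN3A1, BTN3A2 and BTN3A3 in A375R and in A375+DMSO against A375P, beside 22.2% and 26.0% of all genes.

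No paired analysis was possible because each condition has 1 library. Depth limits BTN1A1 and the butyrophilin-like genes, and with no replicates the spread between cultures is unknown.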
